A study of Mus musculus with 4 samples.

Results

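The miR-30 family was followed in small extracellular vesicles (membrane particles that cells shed into body fluids) from mouse plasma. Its members were chosen by name, as the rows of the miRNA tables for miR-30a, miR-30b, miR-30c, miR-30d or miR-30e, from either arm of the hairpin. The rule gave 8 rows of the 530 miRNA names listed in any library. They were the 5p arms mmu-miR-30a-5p, mmu-miR-30b-5p, mmu-miR-30c-5p, mmu-miR-30d-5p and mmu-miR-30e-5p and 3 of the opposite 3p arms, and the species prefix is left out from here on. Beyond the name, rows were selected on 1 measured value, the listing itself, since a library listed a miRNA only from 10 unique molecular identifiers (UMIs) on. UMIs are random tags attached before amplification, so that each captured molecule is counted once. The family was also proposed with results of the same comparison known, so its differences between groups are given as a description.

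Wild-type mice on a normal diet had either sham surgery or surgery that caused a myocardial infarction (MI), and blood was taken at 12 h. Each group gave 2 libraries, made with the QIAseq miRNA kit from vesicles collected by differential centrifugation. Strain, age, sex, the way the infarct was made and whether a library came from 1 animal or a pool are not given in the labels. The labels name no treatment of either group other than the surgery. Since separate animals are not stated, the p-values cover only library-to-library spread, possibly technical. Total reads ran from 11872840 to 24626952 per library and miRNA UMIs from 135334 to 377031, with sham replicate 1 the deepest on both counts.

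A miRNA is cut from a hairpin in a longer transcript, and usually the strand from 1 arm, the guide, is kept by an Argonaute protein while the other, the passenger, is degraded. The guide finds messenger RNAs mainly by pairing of its bases 2 to 8, the seed, and lowers their translation or stability. In the miR-30 family the 5p arms are the main guides and carry a common seed. The family is abundant in heart, kidney and other epithelia and in endothelium, and so marks no single source of plasma vesicles. In rodent heart, miR-30c has been shown to repress connective tissue growth factor together with miR-133, and in human cancer cells miR-30a represses the autophagy gene BECN1.

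Of the 8 rows, 6 matched a mature sequence in the RefSeq table (GRCm38.p6). miR-30b-5p and miR-30d-5p did not, so only 3 of the 5p arms could be compared. These are shown because the common seed, in capitals, defines the family. The few bases that differ are all that separates their reads.
miR-30a-5p: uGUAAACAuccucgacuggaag
miR-30e-5p: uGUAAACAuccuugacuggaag
miR-30c-5p: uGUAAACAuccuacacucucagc
Counted from the 5′ end, miR-30a-5p and miR-30e-5p, both 22 bases long, differ by the single substitution C13U. miR-30c-5p is 23 bases long and has the first 12 bases in common with both. These 5p arms are thus close relatives. The labels and headers do not say how reads with an error at such a position were assigned. The split between near-identical members is therefore uncertain. Among 1679 mature mouse names in the table, miR-384-5p was the other one with this seed that is not named miR-30, and it was listed in no library.

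The 3p arms are shown because they tell which hairpin a molecule came from. Capitals again mark bases 2 to 8.
miR-30a-3p: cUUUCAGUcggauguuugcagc
miR-30e-3p: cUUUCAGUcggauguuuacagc
miR-30c-1-3p: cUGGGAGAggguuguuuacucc
miR-30c-2-3p: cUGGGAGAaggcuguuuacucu
miR-30a-3p and miR-30e-3p differ by G18A alone. The 2 arms made opposite miR-30c-5p differ from each other by G9A, U12C and C22U. miR-30c-5p itself is identical in both of its hairpins, so its UMIs cannot be divided between them.

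The hairpins that give these sequences lie in a pair of clusters. The positions are those of RefSeq on GRCm38.p6, and the overlapping genes are those of GENCODE M21 on GRCm38. Mir30a (chr1:23272269-23272339, plus strand) overlaps no other annotated gene. Mir30c-2 (chr1:23291701-23291784, plus strand) lies 19361 bases further on, inside an exon of Gm27028, annotated as a lincRNA. Mir30e (chr4:120772606-120772697, minus strand) and Mir30c-1 (chr4:120769534-120769622, minus strand) are 2983 bases apart and both lie in an intron, on the same strand, of Nfyc, which encodes a subunit of the CCAAT-binding factor NF-Y. The hairpins of miR-30a and miR-30e, the members that lead the comparison, are printed with both mature arms in capitals.
Mir30a: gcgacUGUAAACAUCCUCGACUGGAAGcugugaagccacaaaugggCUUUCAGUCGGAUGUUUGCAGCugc
Mir30e: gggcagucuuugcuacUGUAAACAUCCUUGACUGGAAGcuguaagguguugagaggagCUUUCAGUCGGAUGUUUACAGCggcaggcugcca

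The summed 5p arms were higher in both MI libraries than in both sham libraries. The sum was 4306 and 1698 UMIs in sham replicates 1 and 2, and 2953 and 2092 UMIs in MI replicates 1 and 2. Expressed per 1000000 miRNA UMIs (CPM), it came to 11421 and 10583 in sham and 13487 and 15458 in MI libraries. The means were 11002 ± 593 CPM (sham) and 14472 ± 1394 CPM (MI; SD, n = 2 per group), a ratio of 1.32. With both arms counted, the family took 1.17% of miRNA UMIs in sham replicate 1 (95% exact Clopper-Pearson interval 1.13 to 1.20%) and 1.08% in sham replicate 2 (1.03 to 1.13%). It took 1.37% in MI replicate 1 (1.32 to 1.42%) and 1.57% in MI replicate 2 (1.51 to 1.64%). These and all following intervals cover counting error only. Without miR-30a-5p the other 5p arms summed to 9327 ± 516 CPM (sham) and 11404 ± 1408 CPM (MI), a ratio of 1.22. In the file headers the read sets of the second replicates of both groups have a tag in common whose meaning is not stated. The headers of both MI libraries name the read sets M2 and not MI, also without explanation, and the groups used here are those of the sample titles. Between libraries of the same replicate number the MI to sham ratio of the summed 5p arms was 1.18 for the first and 1.46 for the second.

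**Figure D1:**
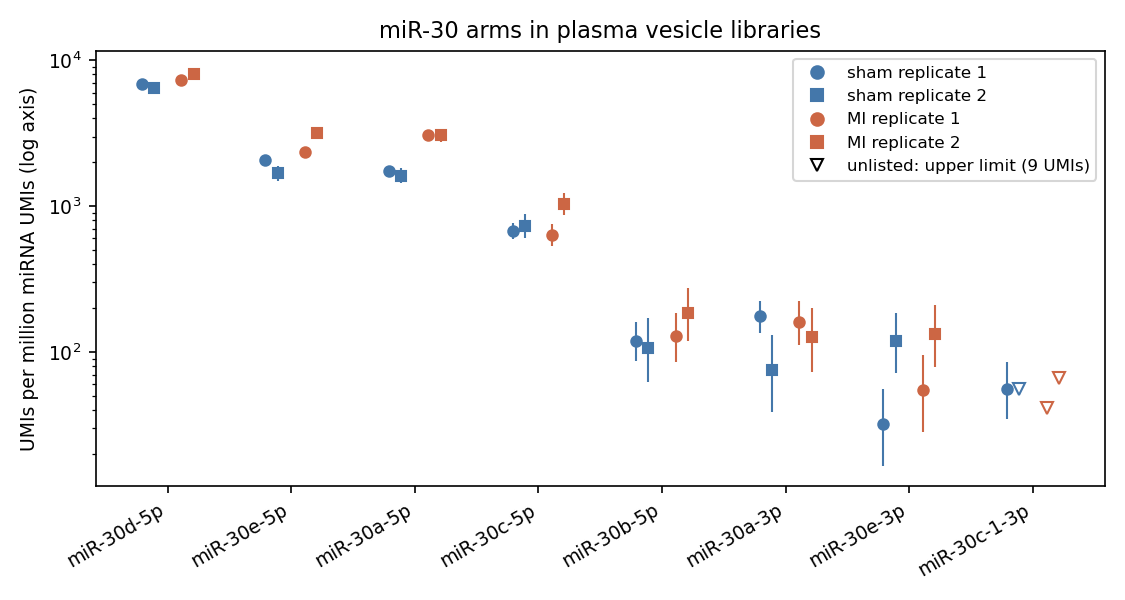
Level of each miR-30 arm in the 4 libraries, as CPM on a log axis; bars are 95% exact Poisson intervals, and open triangles give the upper limit (9 UMIs) where an arm was not listed. Both MI libraries stand above both sham libraries for miR-30d-5p, miR-30e-5p, miR-30a-5p and miR-30b-5p, while miR-30c-5p and the 3p arms overlap.

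miR-30a-5p showed the largest ratio between groups within the family. It was counted with 652 and 260 UMIs in sham replicates 1 and 2 and with 674 and 414 UMIs in MI replicates 1 and 2. As CPM these are 1729 (95% exact Poisson interval 1599 to 1867) and 1620.4 (1429 to 1829.8) in sham, and 3078 (2850.2 to 3319.6) and 3059 (2771 to 3368) in MI libraries. The sham libraries lay close together, the MI libraries closer still, and the groups did not overlap. The means were 1675 ± 77.0 CPM and 3069 ± 13.5 CPM (SD, n = 2 per group), a ratio of 1.83. Within the first replicates the ratio was 1.78 and within the second 1.89. In the whole-table fit its log2 fold change was 0.90 (SE 0.15), the 9th smallest p of 267 tested miRNAs, and it did not pass (edgeR quasi-likelihood test, Benjamini-Hochberg adjusted p = 0.0822). It was past 0.05 in 3 of 13 alternatives. These were library size alone (adjusted p = 0.0449), the DESeq2 Wald test (0.0491) and no low-count filter (0.00282).

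miR-30e-5p, made from the Nfyc intron, had the next largest ratio. The sham libraries held 2066 CPM (779 UMIs) and 1683 CPM (270 UMIs) of it, and the MI libraries 2343 CPM (513 UMIs) and 3169.9 CPM (429 UMIs). The groups did not overlap, but the MI libraries differed from each other by more than the gap between MI replicate 1 and sham replicate 1. The means were 1874 ± 271 CPM and 2756 ± 585 CPM, with a log2 fold change of 0.56 (SE 0.19, edgeR adjusted p = 0.304), which was 0.34 with unlisted miRNAs at 9 UMIs. Within the first replicates the ratio was 1.13 and within the second 1.88. It was past the threshold in 0 of 13 alternatives.

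miR-30d-5p was the most abundant member of every library and ranked 21st to 23rd among all miRNAs. Its level was 6827 CPM (2574 UMIs) and 6438 CPM (1033 UMIs) in sham, and 7303 CPM (1599 UMIs) and 8009.8 CPM (1084 UMIs) in MI libraries. Again the groups did not overlap, with a smaller distance than for miR-30a-5p, and a log2 fold change of 0.23 (SE 0.12, edgeR adjusted p = 0.529). That value was smaller without MI replicate 1 (0.11), without sham replicate 2 (0.15) and with unlisted miRNAs at 9 UMIs (0.032). miR-30b-5p was the scarcest 5p arm. It had 119 CPM (45 UMIs) and 106 CPM (17 UMIs) in sham and 128 CPM (28 UMIs) and 185 CPM (25 UMIs) in MI libraries, and the Poisson intervals of all 4 libraries overlapped (87.1 to 159.7, 61.7 to 169.6, 85.0 to 184.8 and 119.5 to 273 CPM). The test did not detect a difference in miR-30b-5p (log2 fold change 0.47, SE 0.60, edgeR adjusted p = 0.868). The log2 fold change was 0.26 without MI replicate 2.

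miR-30c-5p, the arm from 2 hairpins, did not separate the groups. It had 679 CPM (256 UMIs) and 735 CPM (118 UMIs) in sham, and 635 CPM (139 UMIs) and 1034 CPM (140 UMIs) in MI libraries. MI replicate 1 was thus the lowest of the 4 libraries and MI replicate 2 the highest. The log2 fold change was 0.24 (SE 0.25, edgeR adjusted p = 0.834), and it was -0.073 without MI replicate 2.

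In sham libraries the order of mean levels was miR-30d-5p, miR-30e-5p, miR-30a-5p, miR-30c-5p and miR-30b-5p, and in MI libraries miR-30a-5p stood above miR-30e-5p. The group means of these neighbours did not differ beyond their spread. In sham replicate 2 and MI replicate 2 their intervals overlapped. In sham replicate 1 and MI replicate 1 they were apart, with miR-30e-5p the higher in the sham and miR-30a-5p in the MI library. The MI libraries put them in opposite orders. The other neighbours were apart in every library. UMIs count molecules, so no scaling by length was needed, but capture by a small RNA kit also varies with sequence and the order is that of captured molecules.

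The make-up of the 5p arms differed between groups in miR-30a-5p and miR-30d-5p. miR-30a-5p made up 15.1% of 5p UMIs (95% exact Clopper-Pearson interval 14.1 to 16.2%) in sham replicate 1 and 15.3% (13.6 to 17.1%) in sham replicate 2. It made up 22.8% (21.3 to 24.4%) in MI replicate 1 and 19.8% (18.1 to 21.6%) in MI replicate 2. miR-30d-5p made up 59.8% (58.3 to 61.2%) and 60.8% (58.5 to 63.2%) in sham, and 54.1% (52.3 to 56.0%) and 51.8% (49.7 to 54.0%) in MI libraries. The mean share of miR-30a-5p differed by 6.08 percentage points (MI minus sham) and that of miR-30d-5p by -7.32 percentage points, although the CPM of miR-30d-5p was not lower in MI libraries. The shares of miR-30e-5p (18.1% and 15.9% in sham, 17.4% and 20.5% in MI libraries), miR-30c-5p (5.95% and 6.95%, 4.71% and 6.69%) and miR-30b-5p (1.05% and 1.00%, 0.948% and 1.20%) overlapped between groups. A share within the family needs no scaling between libraries. With 2 libraries against 2 the smallest p of a two-sided exact permutation test is 0.333, so these shares were not tested.

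**Figure D2:**
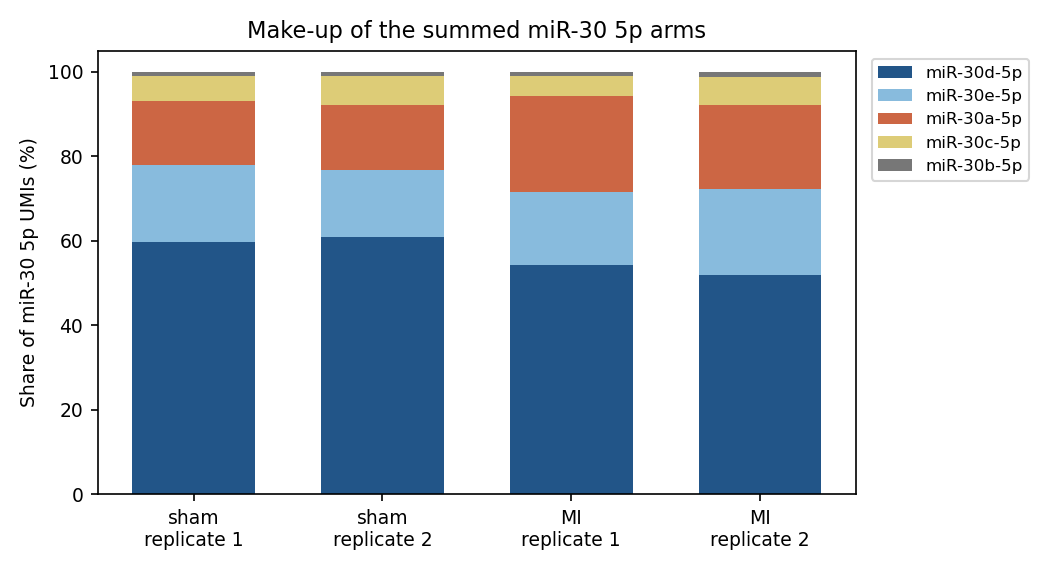
Share of each member in the summed miR-30 5p UMIs of each library, in percent, as stacked bars. The miR-30a-5p band is 15.1 and 15.3% in sham and 22.8 and 19.8% in MI libraries, and the miR-30d-5p band is correspondingly 59.8 and 60.8% against 54.1 and 51.8%.

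The ratio of miR-30a-5p to miR-30d-5p UMIs was nearly the same in the sham libraries, 0.253 and 0.252. It was 0.422 in MI replicate 1 and 0.382 in MI replicate 2, so the mean ratio was 1.59 times that of the sham libraries. Set against miR-30c-5p, miR-30a-5p had a ratio of 2.55 and 2.20 in sham and 4.85 and 2.96 in MI libraries. Against miR-30b-5p the ratio was 14.5 and 15.3 in sham and 24.1 and 16.6 in MI libraries. Against miR-30e-5p, the nearest of the 5p arms with a sequence here, the ratio was 0.837 and 0.963 in sham and 1.31 and 0.965 in MI libraries. This last ratio was practically level in sham replicate 2 and MI replicate 2, and the ratios in general lay further from sham in MI replicate 1 than in MI replicate 2. Whether miR-30a-5p differed between groups by more than the other arms was not tested.

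**Figure D3:**
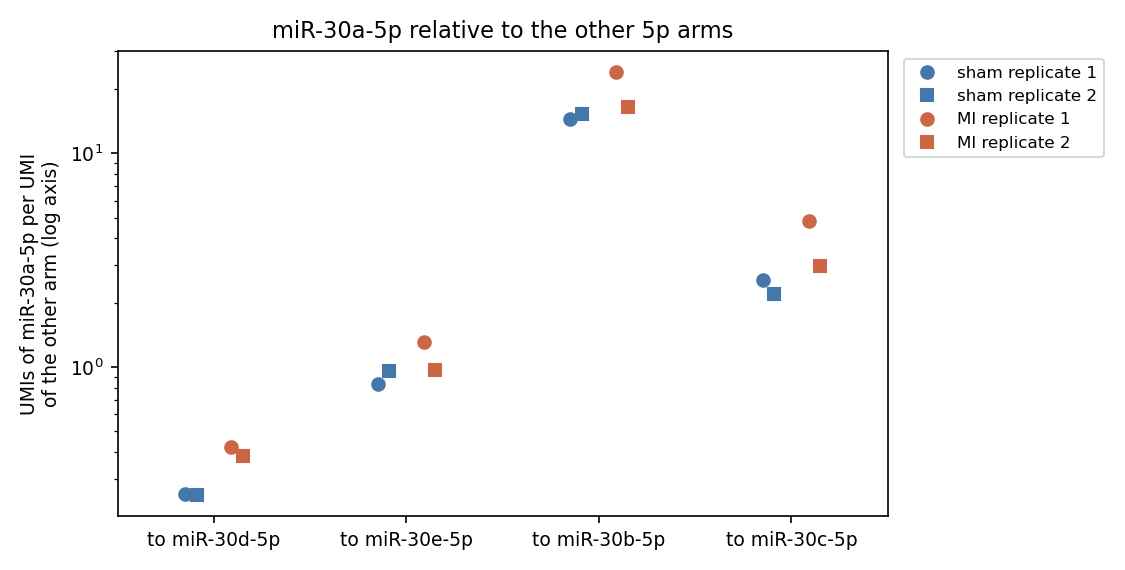
UMIs of miR-30a-5p per UMI of each other 5p arm in the 4 libraries, on a log axis, with 1 point per library. The ratio to miR-30d-5p is 0.253 and 0.252 in sham and 0.422 and 0.382 in MI libraries, whereas the ratio to miR-30e-5p is nearly equal in sham replicate 2 and MI replicate 2.

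miR-30a-5p, miR-30d-5p and miR-30e-5p were also pooled, which takes away the doubt about the split among them. miR-30d-5p had no sequence here, so its likeness to the others was not checked. The pool held 10623 and 9741 CPM in sham against 12724 and 14239 CPM in MI libraries, a ratio of 1.32. The pool of miR-30b-5p and miR-30c-5p gave 798 and 841 CPM in sham against 763 and 1219 CPM in MI libraries and overlapped.

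The passenger arms were scarce. All 3p rows together held 99 and 31 UMIs in sham and 47 and 35 UMIs in MI libraries, or 228 ± 49.1 and 237 ± 31.1 CPM. They made up 2.25% (95% exact Clopper-Pearson interval 1.83 to 2.73%) and 1.79% (1.22 to 2.54%) of family UMIs in sham, and 1.57% (1.15 to 2.08%) and 1.65% (1.15 to 2.28%) in MI libraries. Both MI libraries lay below both sham libraries in this share, but the intervals of the 4 libraries overlapped. Of the 99 UMIs in sham replicate 1, 21 were miR-30c-1-3p, which was unlisted and entered as 0 in the other libraries. The mean share differed by -0.41 percentage points (MI minus sham), and by -0.31 with unlisted miRNAs at 9 UMIs. The difference in this share was not tested.

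miR-30a-3p, the passenger of miR-30a-5p, did not separate the groups. It had 175 CPM (66 UMIs) and 74.8 CPM (12 UMIs) in sham and 159.8 CPM (35 UMIs) and 126 CPM (17 UMIs) in MI libraries. Each UMI of it was matched by 9.88 and 21.7 UMIs of miR-30a-5p in sham and by 19.3 and 24.4 in MI libraries, so the sham libraries spanned most of the range. Its log2 fold change was 0.22 (SE 0.72, edgeR adjusted p = 0.930), with an SE wide enough to hold the fold change of miR-30a-5p as well as 0. miR-30e-3p had 31.8 CPM (12 UMIs) and 118 CPM (19 UMIs) in sham, and 54.8 CPM (12 UMIs) and 133 CPM (18 UMIs) in MI libraries. The second replicate of each group, the one with the tag in the header, was the higher, and its log2 fold change was 0.32 (SE 1.15, adjusted p = 0.931).

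miR-30c-1-3p was listed in sham replicate 1 alone, the deepest library, with 21 UMIs or 55.7 CPM. In the other libraries it was under 10 UMIs, which is at most 56.1 CPM in sham replicate 2, 41.1 CPM in MI replicate 1 and 66.5 CPM in MI replicate 2. No difference can be read from these limits. Of the 11 arms that the names allow, 3 were listed in no library, namely miR-30b-3p, miR-30c-2-3p and miR-30d-3p. At the listing floor, the members just inside were miR-30a-3p in sham replicate 2 and miR-30e-3p in sham replicate 1 and MI replicate 1, with 12 UMIs each, and those just outside had between 0 and 9 UMIs.

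In the test across all miRNAs, 7 of the 8 rows passed the low-count filter, all of them listed in every library, and miR-30c-1-3p did not. None of the 7 was past an adjusted p of 0.05, against 2.25% of the 267 tested miRNAs (6 miRNAs, edgeR quasi-likelihood test). At an unadjusted p of 0.05, 2 of the 7 were higher, miR-30a-5p and miR-30e-5p, against 5.99% of all tested miRNAs. The DESeq2 Wald test called 1 of the rows, miR-30a-5p, and 15 of all 267 tested miRNAs. All 7 log2 fold changes were above 0, against 49.4% of all tested miRNAs, with a median of 0.32 against -0.015. The sign was not stable for 3 of them, since miR-30a-3p, miR-30c-5p and miR-30e-3p turned negative under at least 1 alternative. Both MI libraries stood above both sham libraries for 4 of the 7 rows, all of them 5p arms, against 21.7% of all tested miRNAs. The number of called miRNAs fell from 6 to 0 without sham replicate 1 (30 at an unadjusted p of 0.05 in edgeR), and was 20 without sham replicate 2, 20 without MI replicate 1 and 16 without MI replicate 2. These fits tested 304 to 362 miRNAs and left 1 library in a group. None called a miR-30 row, which, with so few miRNAs called, is not a result about the family.

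**Figure D4:**
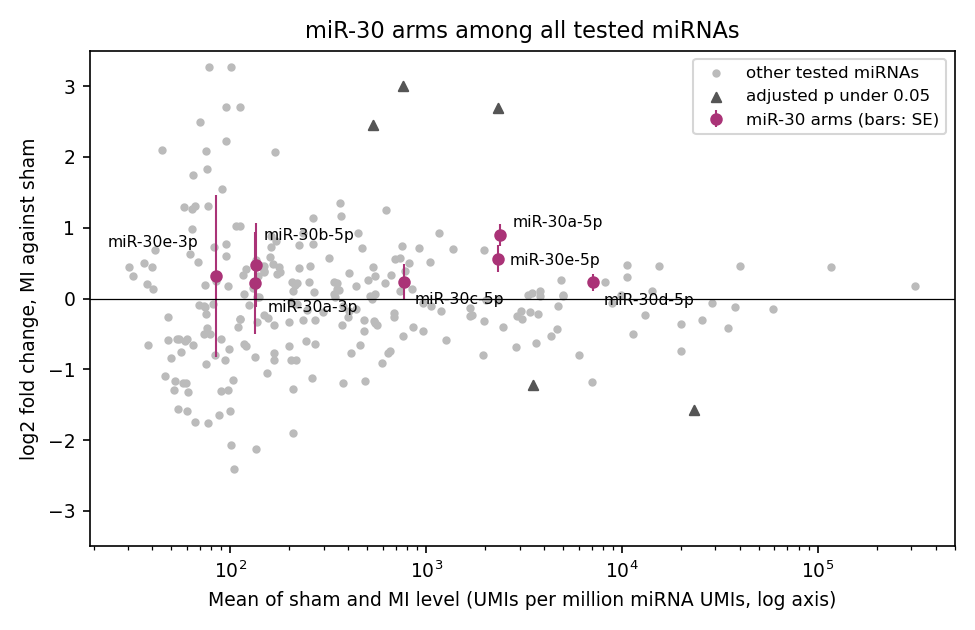
log2 fold change, MI against sham, of the 267 tested miRNAs against their mean level (CPM, log axis), with miR-30 arms in purple (bars: SE) and miRNAs past an adjusted p of 0.05 as triangles. miR-30a-5p lies at 0.90 with an SE of 0.15, the SE bars of miR-30b-5p, miR-30c-5p, miR-30a-3p and miR-30e-3p cross 0, and 12 miRNAs beyond a log2 fold change of 3.5 in size, miR-208a-3p among them, fall outside the plot.

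Marker miRNAs of cells that can shed vesicles into plasma also differed between the groups, and their part in the miR-30 values was not tested. Of all 267 tested miRNAs, 4 were called higher and 2 lower after MI, so a short list in which none passed tells little. The heart and skeletal muscle list holds 7 miRNAs, of which 5 were tested and 3 were higher after MI (miR-133a-3p, miR-133b-3p and miR-208a-3p). Its most abundant member, the skeletal muscle miRNA miR-206-3p, lay in the opposite direction without passing, with 7397 and 7990.0 CPM in sham against 4517 and 4145 CPM after MI, a log2 fold change of -0.80 (edgeR adjusted p = 0.121). The sum over all 5 was 9270 to 9423 CPM in sham against 11103 to 11719 CPM in MI libraries, while no library listed miR-499-5p or miR-208b-3p. miR-208a-3p, a cardiomyocyte miRNA, was listed in neither sham library and had 534 and 473 CPM in MI libraries. None of the 5 erythroid miRNAs, led by miR-486b-5p, passed (median log2 fold change 0.45), with sums of 130350 to 142716 CPM in sham against 164955 to 197739 CPM in MI libraries. Most of that sum was miR-486b-5p, with 95920.5 to 105347 CPM in sham and 120022 to 146091 CPM in MI libraries. It thus shows mainly that miRNA and not the list. The 2 endothelial miRNAs, led by miR-126a-3p, did not pass either (median 0.042), with sums of 14341 to 17967 CPM in sham against 15400 to 18473 CPM in MI libraries.

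Other lists ran lower or overlapped. The 4 miRNAs of the myeloid and platelet list summed to 27703 to 31894 CPM in sham against 20789 to 24421 CPM in MI libraries, and none passed (median -0.54). The list was led by miR-142a-3p, a miRNA of leukocytes in general, so its sum does not mark myeloid cells or platelets alone. The 3 lymphoid miRNAs, led by miR-342-3p, summed to 14436 to 16310.3 CPM in sham and 7947 to 8830.0 CPM in MI libraries, and none passed (median -0.43). miR-342-3p lay just above the threshold (log2 fold change -1.17, edgeR adjusted p = 0.0503). It had 8829.5 and 10857 CPM in sham against 4307 and 4249 CPM in MI libraries. The others had log2 fold changes of -0.43 and 0.017, so the difference in the sum is mainly that of miR-342-3p. Of the 2 hepatocyte miRNAs, miR-122-5p was lower in MI libraries (log2 fold change -1.57, edgeR adjusted p = 0.00675), from 34960 to 35194 CPM in sham to 11253 to 12022 CPM in MI libraries, and miR-122-3p was listed nowhere. Of the 8 kidney and lung epithelial miRNAs, 6 were tested, led by miR-192-5p, and none passed (median -0.22). Their sums were 3453 to 4132 CPM in sham against 3014 to 3406 CPM in MI libraries, and miR-34c-5p and miR-449a-5p, found in ciliated cells, were listed nowhere.

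Among 56 other miRNAs listed in all 4 libraries with a mean of at least 1000 CPM, 3 followed miR-30a-5p most closely. The measure was the root mean square difference between centred log2 CPM over the 4 libraries. miR-486b-3p was closest, with a difference of 0.23 and levels of 8782 and 9274 CPM in sham against 12852 and 11719 CPM in MI libraries. It was followed by miR-451a, a red cell miRNA (0.23, with 1135 and 997 CPM against 2005 and 1360 CPM). The next was miR-1a-3p, a muscle miRNA (0.24, with 1026 and 698 CPM against 1238 and 1197 CPM). Since 4 libraries in 2 groups leave little to compare, this is a description of the profiles only.

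Amplification was slightly deeper for the family than for miRNAs as a whole in every library. Reads per UMI over the family were 14.9 and 12.4 in sham and 12.7 and 13.2 in MI libraries, against 13.6 and 11.7, and 11.2 and 11.8, for all miRNAs. For miR-30a-5p the values were 11.2 and 10.8 in sham and 11.7 and 12.7 in MI libraries. For miR-30d-5p they were 15.3 and 12.8 in sham and 13.0 in both MI libraries. In reads, the ratio of miR-30a-5p to miR-30d-5p in MI libraries was therefore 1.90 times that in sham libraries, compared with 1.59 in UMIs.

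A further row, miR-30f, is not covered by the naming rule and was listed in sham replicate 1 alone, with 11 UMIs from 22 reads, or 2.00 reads per UMI. It is shown because its position touches a member. Its 22 bases (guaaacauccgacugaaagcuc) lie at chr4:120772621-120772642 on the plus strand of GRCm38.p6, wholly inside Mir30e and on the opposite strand. Its position overlaps that of miR-30e-3p (chr4:120772618-120772639, minus strand) and not that of miR-30e-5p (chr4:120772660-120772681, minus strand). In sequence, however, its first 10 bases equal those of miR-30e-5p from base 2 on. The labels and headers do not say whether the counting used strand, so reads of the 2 strands may not have been told apart.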

How the data were processed

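Small RNA of plasma vesicles was counted in 4 libraries, 2 per group. Per the file headers, the deposited values are raw UMI counts and read counts per feature, and raw read counts per read class, with no normalization recorded. The aligner, its version and the build: not given in the sources used here. No listed feature had under 10 UMIs. Unlisted ones were entered as 0. Groups and replicate numbers came from the sample titles.

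miRNA UMIs were fitted with edgeR 4.0.16 (R 4.3.3): TMM, filterByExpr (minimum count 10, minimum total 15), quasi-likelihood F-test, two-sided, Benjamini-Hochberg adjustment over 267 miRNAs, threshold 0.05. SE is the absolute log2 fold change over the square root of F. The fit was tested on simulated data. CPM are UMIs per 1000000 miRNA UMIs. DESeq2 1.42.0 was an alternative.

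Replicates differed by more than sampling noise (chi-square per degree of freedom 16.0 for sham and 10.5 for MI, over 189 miRNAs). No library was therefore treated as a copy of another. The difference does not show that replicates came from separate animals, since separate preparations of the same plasma could also differ. Members, marker lists and tests were chosen with earlier results of these data known. Named were all miR-30 rows, miRNAs sharing their seed, the 3 miRNAs most like miR-30a-5p and the most abundant member of each marker list. The other list members named (those that passed, and those listed nowhere) and miR-30f were named after their values were seen.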

Additional observations from a re-analysis of the deposited data

How the results depend on the processing

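The sum of the 5p arms stayed higher in MI libraries under all alternatives run, with ratios of 1.31 to 1.37 under other units, scalings or entries for unlisted miRNAs and 1.23 to 1.41 when leaving out 1 library. The number of called miRNAs was 10 with library size alone, 15 with the DESeq2 Wald test, 20 with no low-count filter and 10 with unlisted miRNAs at 9 UMIs, and ranged from 0 to 20 when leaving out 1 library. Each of the first 3 of these called 1 miR-30 row, miR-30a-5p, with 267, 267 and 530 miRNAs tested. The split was 4 higher and 2 lower, against 4 and 4 with DESeq2 size factors, 5 and 5 with library size alone, and 3 and 3 with a library size over all RNA classes. With the replicate number as a block, 6 miRNAs were called and miR-30a-5p had an adjusted p of 0.115; deviations of same-numbered libraries correlated at 0.25, and nothing in the labels pairs them. Log2 fold changes of miR-30a-5p ran from 0.71 to 1.17 (adjusted p 0.00282 to 0.604), of miR-30e-5p from 0.34 to 0.67, of miR-30d-5p from 0.032 to 0.24 and of miR-30b-5p from 0.24 to 0.55. That of miR-30a-3p turned to -0.042 with unlisted miRNAs at 9 UMIs and that of miR-30e-3p to -0.47 in read counts. Leaving out 1 library gave -0.30 (sham replicate 2) to 0.92 for miR-30a-3p, with -0.17 without MI replicate 1, -0.073 (MI replicate 2) to 0.39 for miR-30c-5p, and -0.41 (sham replicate 1) to 1.497 for miR-30e-3p, with -0.35 without MI replicate 2. The share of miR-30b-5p in the 5p arms differed by -0.0300 percentage points in read counts, and by -0.0749 to 0.172 when leaving out 1 library. For miR-30c-5p the range was -1.74 to 0.245, for miR-30a-5p 4.56 to 7.60, for miR-30d-5p -8.49 to -6.16, for miR-30e-5p 0.376 to 3.51, and for the 3p share -0.641 to -0.187. The relative ratio of miR-30a-5p to miR-30d-5p, examined after the data were seen, was 1.51 to 1.67 when leaving out 1 library and 1.90 in read counts. The cause of these shifts was not tested. The counts of 12 to 66 UMIs limit the 3p arms.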
